A study of Mus musculus with 6 samples.

Results

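The smooth muscle contractile genes followed here were Acta2, Tagln, Cnn1, Myl9, Tpm1, Tpm2, Cald1, Actg2, Myh11 and Lmod1. Their regions were every genomic region that the authors assigned to 1 of these 10 symbols in 4 deposited tables of CUT&Tag signal. There were 103 such regions of 456310 in all 4 tables. CUT&Tag uses an antibody to bring a transposase to chromatin, and the resulting reads mark DNA close to the antibody's target. The cells were primary cardiac fibroblasts from mouse heart, and the study profiled SRF and TAZ to ask whether TGF-b changes their association with chromatin and whether an siRNA alters that change.

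Each of the 6 libraries was the only 1 of its group. The T set held the libraries titled NC-T, T-T and SI-T, with the treatments NC, TGF-b and TGF-b+SiTAZ, and the S set held NC-S, T-S and SI-S, with NC, TGF-b and TGF-b+SiSRF. NC was taken as the control. The labels do not state the antibody, so that T for TAZ and S for SRF is an inference. The labels name the siRNA after TAZ or SRF, while Piezo2 is the target in the study's text, so it is called only the siRNA here. The series' design text speaks of Tet3 knockout with a Cre virus, which no label of these 6 libraries mentions, so no genotype is given here. Association of a factor with DNA cannot show whether a transcript was knocked down or expressed.

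Smooth muscle contractile proteins form the actin filaments, their binding proteins and the myosin motors that pull on them, and fibroblasts make several of them when TGF-b turns them into myofibroblasts. SRF binds a short motif named the CArG box in the promoters of many such genes, together with myocardin family coactivators that respond to the state of actin. TAZ has no DNA-binding domain of its own and reaches DNA through TEAD factors, which bind sites that hold GGAATG. Both routes are known for their response to mechanical tension.

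RefSeq promoter windows, from 250 bases before to 50 after a start site in GRCm38.p6, were found for 7 of the 10 genes, as 8 windows because Cald1 has a pair of start sites there. Tagln, Actg2 and Myh11 had no window and were not searched. The exact CArG box, searched on both strands, occurred in 1 of 8 windows (12.5%), that of Myl9, and in 1.63% of all 32851 windows. With up to 1 mismatch, a search added after the files were seen, it occurred in 5 of 8 windows (62.5%), against 21.1% of all windows. The letters GGAATG, on either strand, occurred in 4 of 8 windows, those of Acta2, Cald1, Lmod1 and Tpm1, against 14.7% of all. The same 4 windows held both a CArG box with up to 1 mismatch and GGAATG, a combination found in 3.41% of all windows. No match of 1 motif overlapped a match of the other. The 5 windows with either motif are printed because the regions described next lay near these genes' starts, with the matches in capitals, from 5′ to 3′ on the gene's strand.
Myl9, chr2:156775214-156775513, plus strand: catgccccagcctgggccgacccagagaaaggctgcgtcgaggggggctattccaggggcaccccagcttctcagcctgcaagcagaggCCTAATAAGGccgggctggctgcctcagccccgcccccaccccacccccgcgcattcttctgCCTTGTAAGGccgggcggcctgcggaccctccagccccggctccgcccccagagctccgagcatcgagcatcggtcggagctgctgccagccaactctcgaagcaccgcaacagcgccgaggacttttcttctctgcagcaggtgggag
Acta2, chr19:34255324-34255623, minus strand: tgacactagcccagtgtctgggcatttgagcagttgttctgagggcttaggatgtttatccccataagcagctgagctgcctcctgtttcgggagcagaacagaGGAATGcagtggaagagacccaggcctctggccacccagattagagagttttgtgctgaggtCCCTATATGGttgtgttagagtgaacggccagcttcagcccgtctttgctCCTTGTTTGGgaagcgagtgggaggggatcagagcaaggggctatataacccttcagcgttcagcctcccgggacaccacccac
Tpm1, chr9:67049164-67049463, minus strand: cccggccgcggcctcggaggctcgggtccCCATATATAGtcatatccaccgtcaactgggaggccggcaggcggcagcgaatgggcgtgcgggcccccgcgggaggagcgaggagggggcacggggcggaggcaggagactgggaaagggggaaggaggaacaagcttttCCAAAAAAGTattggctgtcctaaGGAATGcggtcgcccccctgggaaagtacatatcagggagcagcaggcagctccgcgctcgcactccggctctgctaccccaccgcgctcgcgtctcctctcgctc
Lmod1, chr1:135324563-135324862, plus strand: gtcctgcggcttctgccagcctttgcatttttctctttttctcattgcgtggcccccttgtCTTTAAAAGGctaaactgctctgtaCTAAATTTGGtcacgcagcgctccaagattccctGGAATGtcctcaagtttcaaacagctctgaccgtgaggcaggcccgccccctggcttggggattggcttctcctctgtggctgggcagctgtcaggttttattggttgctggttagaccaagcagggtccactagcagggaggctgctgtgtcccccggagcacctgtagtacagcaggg
Cald1, chr6:34598254-34598553, plus strand: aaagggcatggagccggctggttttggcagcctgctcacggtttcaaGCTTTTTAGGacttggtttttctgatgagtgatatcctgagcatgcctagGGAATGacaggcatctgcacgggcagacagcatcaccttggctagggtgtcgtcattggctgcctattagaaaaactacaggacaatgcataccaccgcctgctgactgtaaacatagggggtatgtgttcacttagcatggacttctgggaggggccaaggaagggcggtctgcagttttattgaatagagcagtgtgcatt
In the Myl9 window, the first match in capitals was the exact CArG box, which began 161 bases before the start site, and the second had 1 mismatch. In the Acta2 window, the GGAATG began 146 bases before the start, and the CArG boxes with 1 mismatch began 84 and 34 bases before it. The Tpm1 window had GGAATG 56 bases before the start and CArG boxes with 1 mismatch at 221 and 80 bases before it. The RefSeq start of Acta2 lay 217 bp from that of the transcript to which its promoter region was assigned, that of Tpm1 193 bp and that of Myl9 44 bp, all measured in GRCm38. The windows of Cnn1, Tpm2 and the second Cald1 start held neither motif, which says only that these letters are not in those 300 bases. The deposited regions themselves were treated as GRCm39, and no sequence was read at their coordinates.

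Of the 103 regions, 46 came from the T set table of TGF-b against NC and 41 from that of siRNA against TGF-b, while the S set tables gave 7 and 9. Merged over both tables of a set, the T set had 64 distinct regions at all 10 genes. Cald1 had 24 of them, Myh11 7, Myl9, Tpm2 and Lmod1 6 each, Acta2 and Tpm1 4 each, Actg2 3, and Tagln and Cnn1 2 each. The S set had 13 distinct regions at 5 genes, with 5 at Myh11, 3 at Cald1, 2 each at Tpm2 and Lmod1 and 1 at Acta2. It had no region at Tagln, Cnn1, Myl9, Tpm1 or Actg2. Cald1 is a long gene of 177 kb, and its 17 regions in the T set table of TGF-b against NC came to 9.61 per 100 kb, near the median of 7.41 for genes with a region that were longer than 20 kb.

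**Figure D1:**
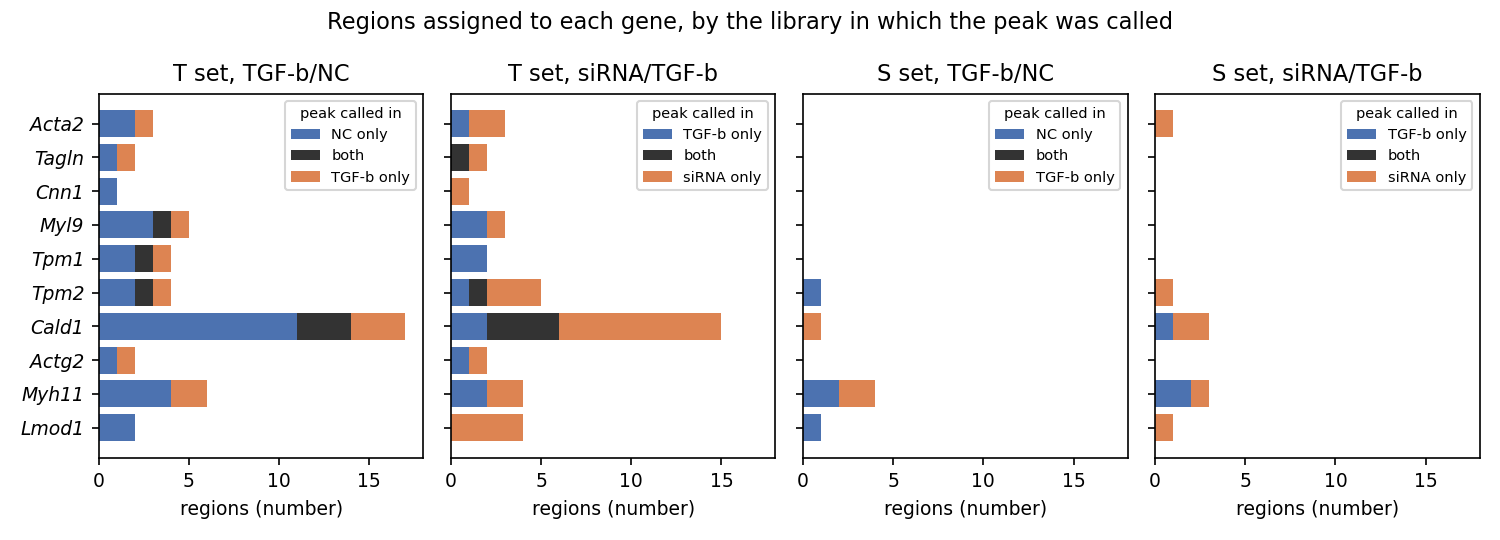
Number of regions assigned to each gene in the 4 tables, with colours for the library in which the authors called the peak. Cald1 led both T set tables with 17 and 15 regions, and 5 of the 10 genes had no bar in either S set table.

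The regions of the contractile genes in the T set were often close to start sites. A start site within 3 kb was found for 22 of 46 regions (47.8%) of TGF-b against NC, compared with 27.9% of all regions that had a gene assigned, and for 15 of 41 (36.6%) of siRNA against TGF-b, compared with 26.6%. All 10 genes had a region within 3 kb of a start in the first table and 9 in the second, where Myh11 had none, against 73.0% and 72.4% of all genes with a region. Within 1 kb the numbers were 10 and 8, against 54.8% and 53.4% of all genes with a region. Of the 22 regions near a start, 4 lay at starts of Cald1 transcripts annotated as retained intron, and 18 at starts of protein-coding transcripts. A peak had been called in both libraries in 6 of 46 regions, 29 (63.0%) were called in NC only and 11 (23.9%) in TGF-b only. Over all regions of that table, 5.42% were called in both, 68.9% in NC only and 25.7% in TGF-b only. Near starts, 18.2% of the contractile genes' regions and 14.0% of all were called in both. A region is listed because a peak was called in at least 1 library of the table, so where it was called in 1 library only, a higher density there is in part fixed by how regions entered the table. These shares describe single libraries, and no test of them was run.

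Reads behind each value were few. In a window of 2 kb around each region's midpoint, the 46 regions had a median of 15 NC and 11 TGF-b reads, and the 41 regions had 9 in TGF-b and 6 in siRNA. The medians over all regions were 9 and 5, and 5 and 6. In the S set the contractile genes had medians of 6 and 7 reads, then 7 and 9. Windows of neighbouring regions shared reads in 20 of 46 and 15 of 41 T set regions, so these regions were not independent, and in none of the S set. As a check of the cell type, 7 of 9 fibroblast markers had a region within 3 kb of a start in the T set table of TGF-b against NC, but so had 4 of 6 cardiomyocyte, 3 of 4 endothelial, 2 of 4 macrophage and 3 of 3 mural cell markers. In the table of siRNA against TGF-b the numbers were 5 of 9, 4 of 6, 3 of 4, 3 of 4 and 2 of 3, so that occupancy did not set fibroblasts apart. With 1 library per group, no test between treatments was possible, and every interval given is a 95% interval of counting error alone.

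After TGF-b, the T set density near starts was higher by counting error, on the authors' scale, at Tagln, Cnn1, an internal Cald1 start and the upstream region of Actg2. It was lower at the distal start of Tpm1, at Tpm2, inside Actg2 and at regions near retained-intron starts of Cald1. The log2 ratios of -2.29, -2.36 and -2.40 at these Cald1 regions were farther from 0 than the -0.77 and -0.93 at Tpm1 and Tpm2. The Cald1 region closest to a retained-intron start, 151 bp before it, was not lower by counting error (-0.17, -1.50 to 1.09). At the starts of Acta2, Myl9, Myh11, Lmod1 and the first Cald1 transcript the intervals included 0. Peaks at Tagln and upstream of Actg2 were called in TGF-b only. Those at Tpm2, inside Actg2 and at the Cald1 regions with -2.36 and -2.40 were called in NC only. These directions are thus in part fixed by how the regions were listed. The Cnn1 peak was called in NC and the Cald1 peak with -2.29 in TGF-b, where density was lower. Centring on the median of the table, -0.65, made the ratios -0.12 at the distal start of Tpm1, -0.28 at Tpm2, 0.69 at Acta2, 0.89 at Myh11 and 0.74 at Lmod1. Of the 46 regions, 8 (17.4%) were at least 2-fold higher in normalised read density, against 17.3% of all 170890 regions, and 12 (26.1%) were at least 2-fold lower, against 42.1%. Centred on the median, 12 were higher and 11 lower, against 26.7% and 27.2% of all regions. Of the ratios, 7 had an interval above 0, against 14.8% of all, and 16 (34.8%) an interval below 0, against 31.1%. Near start sites, 4 of 22 regions were at least 2-fold higher and 4 at least 2-fold lower, against 19.2% and 29.2% of all such regions. The shares of higher regions were thus near the background, over all regions and near starts. The median log2 ratio was -0.27 over the 46 regions and -0.65 over all regions. Near starts these medians were -0.12 and -0.18, and away from starts -0.42 and -0.77.

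Among the actins, Acta2 (ENSMUSG00000035783), which encodes the smooth muscle alpha-actin used as the classical myofibroblast marker, had its main T set region in the 5′ UTR, 248 bp past the start, at chr19:34232681-34232803. It held 35 NC, 36 TGF-b and 8 siRNA reads. The NC and TGF-b libraries were alike there and the siRNA library was low. The log2 ratio of density of TGF-b over NC was 0.04 (interval -0.62 to 0.71), and that of siRNA over TGF-b was -1.57 (-2.78 to -0.62), a 2.97-fold lower density. The authors' peak at this position was called in NC and in siRNA but not in TGF-b, so that the class of a region and its reads did not follow each other. A region in an intron of Acta2, at chr19:34225910-34226023, had 0, 5 and 2 reads in the same order, with TGF-b at least 1.78-fold above NC when the count of 0 was set to a floor of 3 reads. The floor takes in no error of the other count, and the counting interval of this log2 ratio began lower, at 0.63. The remaining Acta2 regions had 8 reads or fewer in any library.

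Actg2 (ENSMUSG00000059430) encodes the gamma-actin of visceral smooth muscle. Its region 778 bp before the start, at chr6:83513973-83514078, had 0 NC, 6 TGF-b and 0 siRNA reads. The floor makes TGF-b at least 2.06-fold above NC and at least 1.29-fold above siRNA, while the counting intervals of the log2 ratios came as near to 0 as 0.88 and -0.20. The peak was called in TGF-b only in both tables, so the region was listed through the library in which it is high, and the order of the 3 counts is not independent of that choice. A region inside the gene, 2.9 kb past the start of another Actg2 transcript, had 12 NC and 2 TGF-b reads (log2 ratio -1.96, interval -4.42 to -0.43). It was called in NC only. In siRNA against TGF-b, the Actg2 region with the most reads lay 4.07 kb before a start. It had 5 TGF-b and 4 siRNA reads (0.19, -1.65 to 1.91).

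Of the actin-binding proteins, Tagln (ENSMUSG00000032085) encodes SM22, an early marker of smooth muscle differentiation. The T set region 53 bp before its start, at chr9:45847270-45847549, held 15 NC, 38 TGF-b and 27 siRNA reads. The NC library was the lowest of the 3. The TGF-b density was 2.50-fold that of NC (log2 1.32, interval 0.53 to 2.23), and it was 16.5 in both TGF-b and siRNA after the authors' normalization (log2 ratio interval -0.72 to 0.69). Centring the table on its median took the siRNA ratio to -0.97. The peak was called in TGF-b only in the first table and in both libraries in the second. In the first, the region was thus listed through the library in which it is high. A second region 1061 bp before the start, whose window shared reads with the first, had 23, 33 and 28 reads, with ratios of 0.52 (-0.22 to 1.30) and 0.25 (-0.48 to 0.96), neither of them apart from 0 by counting error, and the second became -0.72 when centred.

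Cnn1 (ENSMUSG00000001349), which encodes calponin, an inhibitor of actomyosin ATPase in smooth muscle, had 1 T set region in each table. The region 24 bp before a start, at chr9:22010455-22010522, rested on 10 NC and 21 TGF-b reads, a log2 ratio of 1.08 (0.09 to 2.21). The second table had no region at that position and listed a different region 434 bp before a start of Cnn1, with 7 TGF-b and 7 siRNA reads.

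Cald1 (ENSMUSG00000029761) encodes caldesmon, which holds back myosin on the thin filament and is made as a long smooth muscle form and a shorter form of other cells. Its region with the most reads in TGF-b and in siRNA lay 103 bp before the most upstream start, at chr6:34575172-34575492, and had 54 NC, 70 TGF-b and 73 siRNA reads. The 3 libraries were close in reads, with log2 ratios of 0.32 (-0.18 to 0.83) for TGF-b over NC and 0.55 (0.08 to 1.02) for siRNA over TGF-b. When each table was centred on its median, they became 0.97 and -0.42. At an internal start, chr6:34686276-34686497, the counts were 9, 23 and 17, so that NC was lowest, with a ratio of 1.34 (0.35 to 2.52) after TGF-b and of 0.05 (-0.86 to 0.92) after siRNA, which centring took to -0.92.

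Of the 17 Cald1 regions in TGF-b against NC, 2 (11.8%) were at least 2-fold higher and 7 (41.2%) at least 2-fold lower, near the 17.3% and 42.1% of all regions. These 7 were among the 12 lower regions of all the contractile genes. All 7 began between positions 34690142 and 34745415 on chromosome 6, towards the 3′ end of the gene, and 6 of them had been called in NC only and so were listed through that library. The regions beginning at 34725816 and 34726446, near the start of a retained-intron transcript, had 54 NC, 10 TGF-b and 13 siRNA reads, and 52, 9 and 13, in overlapping windows. Both were high in NC alone, with ratios of -2.29 (-3.35 to -1.44) and -2.36 (-3.49 to -1.49). The regions at 34734770 and 34735160 shared 27 reads in NC and had 0 in TGF-b, at least 6.20-fold lower, and that at 34745415 had 20 and 0, at least 4.61-fold lower, with intervals that reached up to -2.64, -2.64 and -2.19. The region at 34738841 had 11 and 1 (-2.40, -5.87 to -0.69), and that at 34690142 had 16 and 1 (-2.92, -6.40 to -1.27). The other regions in this stretch had 18 and 21 reads (ratio 0.26) and 10 and 8 reads (ratio -0.17). The latter lay 151 bp before a retained-intron start. Within an intron, 11.4 kb past a start, the region at 34586865 had 68 NC, 42 TGF-b and 22 siRNA reads, with ratios of -0.72 (-1.28 to -0.18) and -0.43 (-1.19 to 0.28). The neighbouring region at 34586164, 10.6 kb past the same start and in an overlapping window, was listed in the first table alone and had 69 NC reads, the most of any NC window here, and 37 TGF-b reads (-0.91, -1.50 to -0.36).

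The tropomyosins lie along the actin filament and gate the access of myosin. Tpm1 (ENSMUSG00000032366) had T set regions at a pair of its starts, which differed in the order of the libraries. At the distal start, chr9:66956517-66956752, there were 42 NC, 24 TGF-b and 17 siRNA reads, so that NC was highest, with a ratio of -0.77 (-1.51 to -0.08) for TGF-b over NC and equal densities of 10.6 in TGF-b and siRNA. Centring took these ratios to -0.12 and -0.97. At an internal start, chr9:66951190-66951354, there were 11, 20 and 2 reads. The siRNA library was lowest there, with a ratio of 0.88 (-0.10 to 1.98) for TGF-b over NC and -2.35 (-4.81 to -0.92) for siRNA over TGF-b. This peak was called in TGF-b only in both tables, so the region was listed through the library in which it is high. The region 262 bp before the distal start shared its window with the one 54 bp past it and had 42 and 22 reads in NC and TGF-b (ratio -0.89, -1.66 to -0.18), and that 1724 bp before it had 6 and 5.

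Tpm2 (ENSMUSG00000028464), encoding beta-tropomyosin, had a region at its start that was lowest in TGF-b. This region 266 bp past it, at chr4:43522993-43523251, had 36 NC, 18 TGF-b and 29 siRNA reads. On the log2 scale the ratios were -0.93 (-1.78 to -0.17) and 1.13 (0.32 to 2.0). The peak was called in NC only in the first table and in siRNA only in the second, so in each the region was listed through the library with the higher density, and the low place of TGF-b is in part fixed by that. With all regions of the table centred on their median, the second ratio was 0.16. In the second table an adjoining region 905 bp past the start had 14 TGF-b and 32 siRNA reads (1.61, 0.77 to 2.56), in a window that overlaps the first, and was called in siRNA only. A region 6.55 kb before a start, annotated as downstream, had 17, 13 and 10 reads and intervals that included 0.

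Of the myosin genes, Myl9 (ENSMUSG00000067818) encodes the regulatory light chain whose phosphorylation starts smooth muscle contraction, and its promoter window held the exact CArG box printed above. The region 56 bp before its start, at chr2:156617182-156617386, had 31 NC, 22 TGF-b and 7 siRNA reads. The siRNA library was lowest. The ratio of TGF-b over NC was -0.45 (-1.25 to 0.31), which became 0.20 when centred on the median of all regions, and that of siRNA over TGF-b was -1.06, with an interval of -2.38 to 0.0041 that just included 0. Centring took this siRNA ratio to -2.03. The neighbouring regions, 919 bp before and 260 bp past the start, had 25 and 19, and 27 and 22 reads in NC and TGF-b, in windows that overlap that of the first. A region in the gene's body, 5.25 kb past the start, had 1 NC, 6 TGF-b and 0 siRNA reads.

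Myh11 (ENSMUSG00000018830), the smooth muscle myosin heavy chain and the most restricted marker of mature smooth muscle among these genes, had 15 NC and 17 TGF-b reads at 103 bp before its start, chr16:14109302-14109377, a ratio of 0.24 (-0.73 to 1.23). The second T set table had no Myh11 region within 3 kb of a start, and its region with the most reads, 53.8 kb inside the gene, had 15 NC, 13 TGF-b and 4 siRNA reads. Neither of its ratios was apart from 0 by counting error (-0.11, -1.17 to 0.92, and -1.03, -2.79 to 0.30). Lmod1 (ENSMUSG00000048096), a leiomodin that nucleates actin filaments in smooth muscle, had 13 NC and 13 TGF-b reads at 59 bp before its start, chr1:135252433-135252539. In the second table its region 1667 bp past the start had 1 TGF-b and 13 siRNA reads, a log2 ratio of 3.26 (1.57 to 6.73), in a region called in siRNA only. The other three Lmod1 regions of that table had between 2 and 6 reads in either library.

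**Figure D2:**
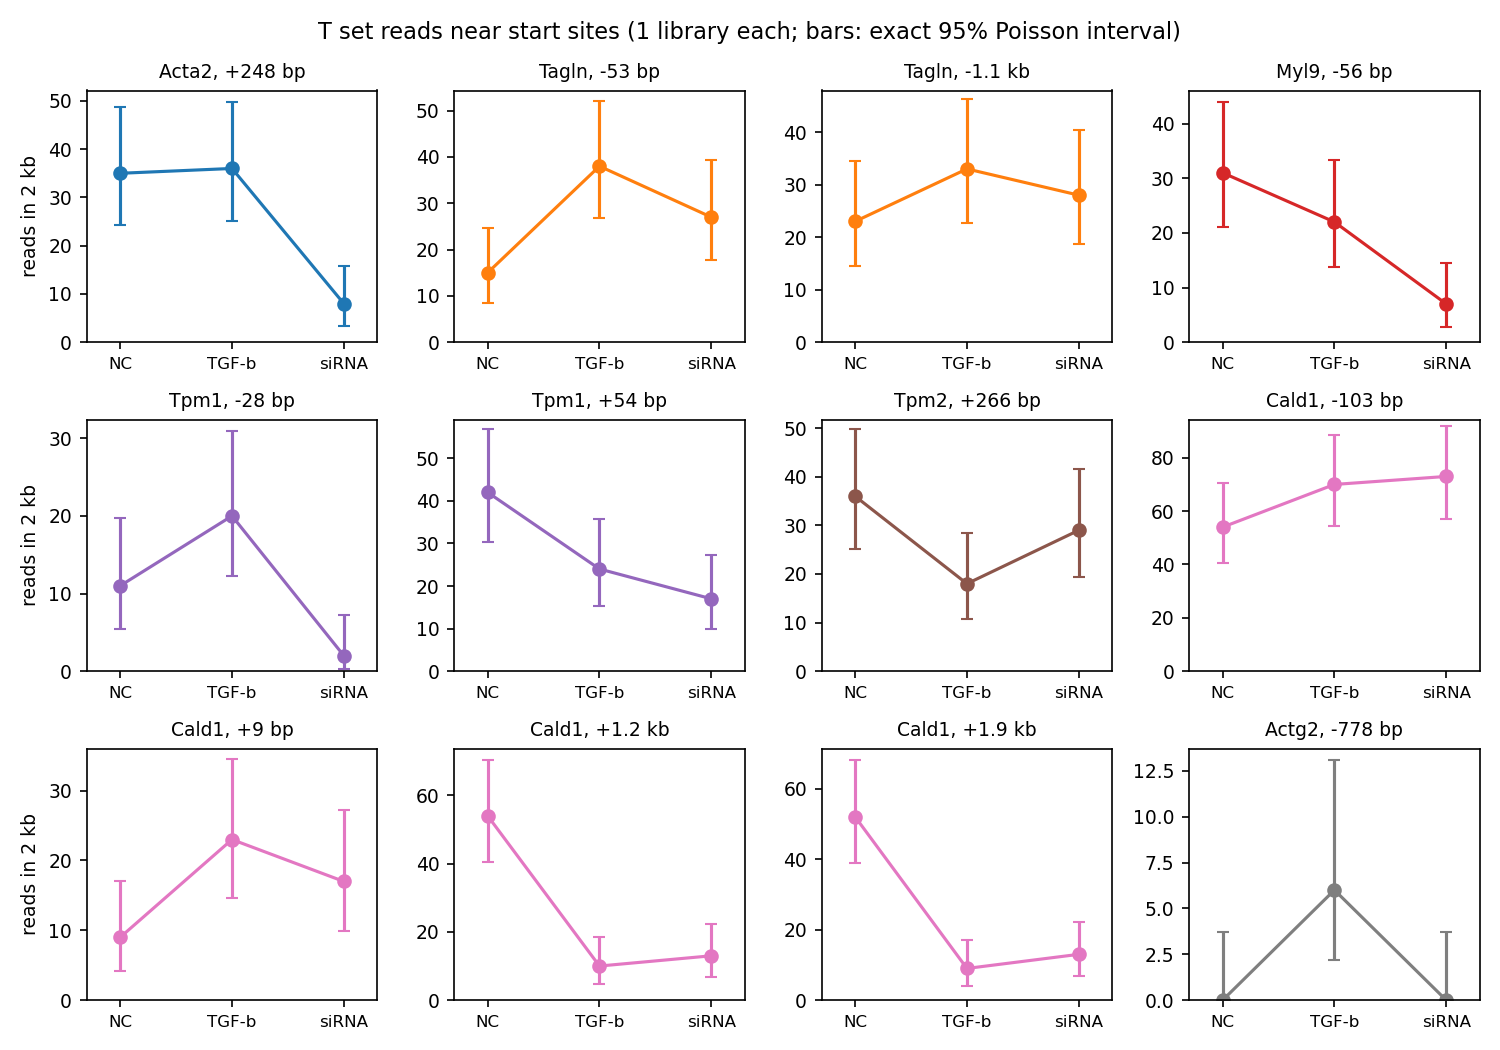
Reads in the 2 kb window of each T set region within 3 kb of a start that was present in both tables, in NC, TGF-b and siRNA, 1 library each, with exact 95% Poisson intervals; the distance of the region from its start is in each title and each panel has its own scale. Acta2 (35, 36 and 8 reads), Myl9 (31, 22 and 7) and the internal start of Tpm1 (11, 20 and 2) were lowest in siRNA, whereas Tpm2 (36, 18 and 29) was lowest in TGF-b.

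With siRNA, T set density near starts was lower than in TGF-b alone, by counting error and on the authors' scale, at Acta2, the internal Tpm1 start and the upstream region of Actg2. It was higher at Tpm2, at the first start of Cald1 and inside Lmod1. At Tagln, Cnn1, Myl9 and the distal start of Tpm1 the intervals included 0. Peaks at the internal Tpm1 start and at Actg2 were called in TGF-b only, and those at Tpm2 and Lmod1 in siRNA only, so these directions are in part fixed by how the regions were listed, whereas the Acta2 peak was called in siRNA, where density was lower, and that of Cald1 in both. Centring on the median of the table made the ratios -2.54 at Acta2 and -3.32 at the internal Tpm1 start, 0.16 at Tpm2, -0.42 at Cald1, 2.29 at Lmod1, -0.97 at Tagln and -2.03 at Myl9. Of 41 regions, 9 (22.0%) were at least 2-fold higher, against 49.7% of all 180118, and 8 (19.5%) were at least 2-fold lower, against 16.2%. The interval lay above 0 in 6 regions, against 38.9%, and below 0 in 5, against 11.4%. Within 3 kb of a start, 3 of 15 were higher and 4 lower, against 34.5% and 19.6%. The median log2 ratio was 0.11, against 0.97 over all regions, but near starts it was 0.25 against 0.33. Away from starts, where 26 regions lay, it was 0.10 against 1.04. With the table centred on its median, the 9 higher and 8 lower regions became 2 and 16 (all regions: 29.2% higher and 28.9% lower). This centring subtracts 0.97 from every ratio alike.

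**Figure D3:**
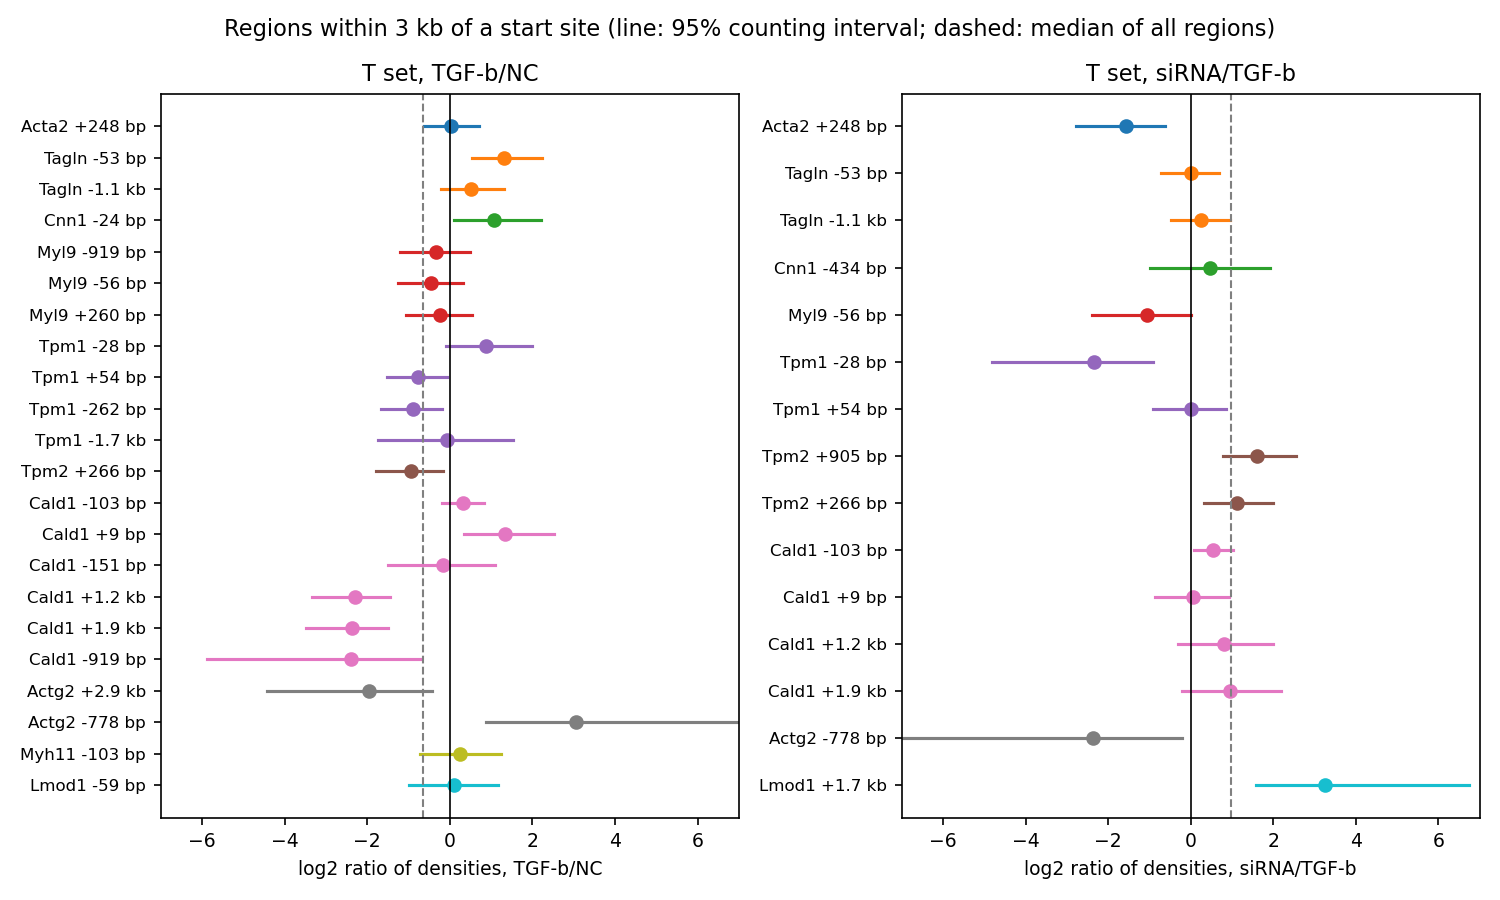
Log2 ratio of normalised read densities, on the horizontal axis, of each T set region within 3 kb of a start, for TGF-b over NC (left) and siRNA over TGF-b (right). Points are ratios and lines their 95% counting intervals, which run on to the edge of the plot where 1 library had 0 reads; the dashed line is the median of all regions, -0.65 on the left and 0.97 on the right.

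Both comparisons of a set share the TGF-b library, so a low TGF-b count lowers the first ratio and raises the second, and the values are best read as 3 counts side by side. Through all 3 T set libraries 23 regions at 8 genes could be followed, 12 of them within 3 kb of a start. The recovered TGF-b reads were the same in both tables for all of these regions and for the 3 of the S set. Cnn1 and Lmod1 could not be followed, since no region of theirs was in both tables. Reads of 3 or fewer in at least 1 library occurred in 14 of 46 and 16 of 41 regions, against 49.3% and 57.9% of all regions. The interval of the ratio included 0 in 23 of 46 and in 30 of 41 regions (73.2%), against 54.1% and 49.7% of all regions, and no difference was detectable by counting in these.

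**Figure D4:**
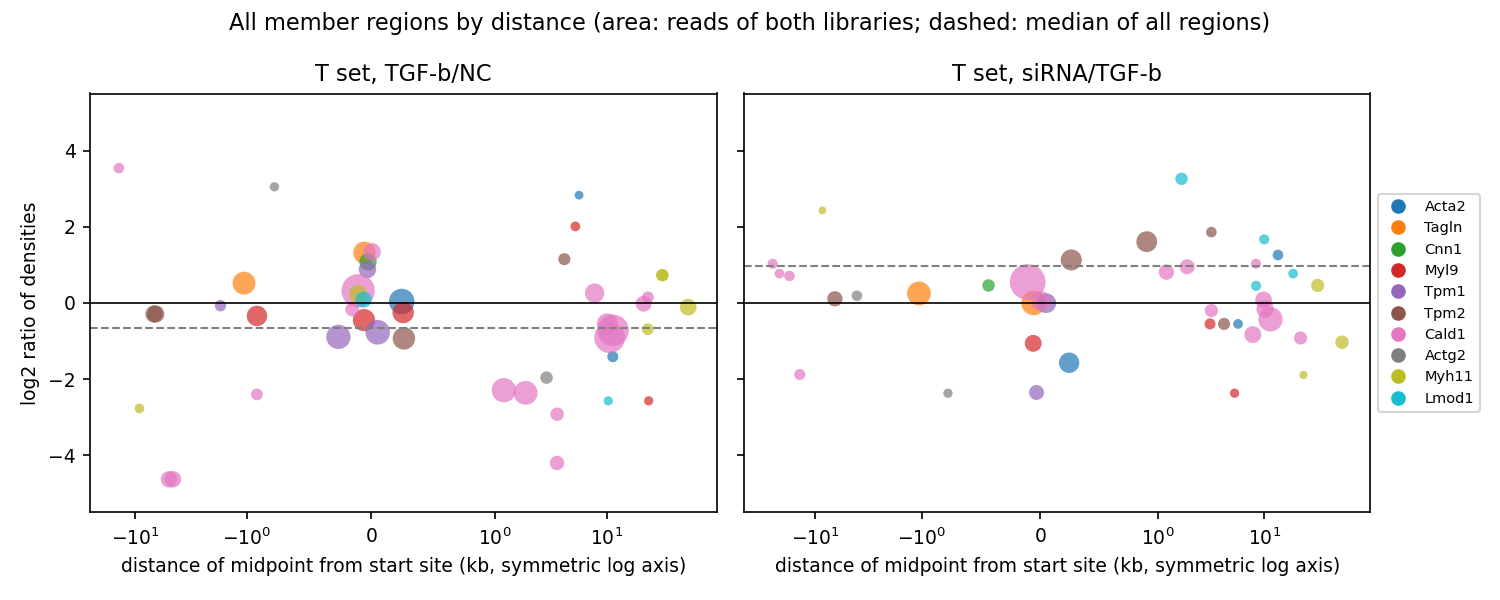
Log2 ratio of density of every T set region of the contractile genes against the distance of its midpoint from the start site, in kb on a symmetric log axis that is linear within 1 kb of 0. The area of a point grows with the reads of both libraries and the dashed line is the median of all regions; regions with many reads lay near starts or in a Cald1 intron 10.2 to 11.4 kb past a start, and the ratios farthest from 0, such as -4.63 at Cald1 on the left, belonged to regions with few reads in 1 library.

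The S set, taken to be SRF, had few regions and few reads at these genes, at most 17 in any window. In TGF-b against NC, 1 of 7 regions was at least 2-fold higher, against 17.4% of all 52723 regions, and 3 were at least 2-fold lower, against 26.7%. In siRNA against TGF-b, 3 of 9 were higher, against 15.1% of 52579, and 2 lower, against 27.8%. These regions are too few to read a share from. The medians were -0.40 and 0.73, against -0.20 and -0.21 over all regions. Counting left 5 of 7 and 6 of 9 intervals with 0 inside, against 69.3% and 68.0% of all regions. No peak was called in both libraries of a table, as in all but 2.19% and 3.90% of all S set regions.

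In the siRNA comparison, 6 of 9 S set regions lay within 3 kb of a start (66.7%), against 33.4% of all regions with a gene, and all 5 genes with a region had one there, against 57.7% of all genes with a region. In TGF-b against NC, 1 of 7 regions (14.3%) did, against 28.4%, and 1 of 4 genes, against 51.7%. Acta2 had 7 TGF-b and 17 siRNA reads at 381 bp before its start, chr19:34233304-34233439, a ratio of 1.26 (0.14 to 2.60). Cald1 had 6 and 14 reads at 115 bp before its first start (1.20, -0.01 to 2.66), and 2 and 5 at a retained-intron start. Tpm2 had 8 and 13 at 966 bp past its start (0.73, -0.44 to 2.03), and Lmod1 had 7 and 10 at 892 bp before its start (0.57, -0.72 to 1.97). All 5 had been called in siRNA only, so their listing rests on the library with more reads, and the direction is in part fixed by that. The interval of Acta2 alone lay above 0. In the NC table none of these 5 positions was listed.

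Most S set regions of Myh11 were listed through the library in which they were high. The region 1452 bp before the start, at chr16:14110590-14110787, had 6 NC, 7 TGF-b and 0 siRNA reads, at least 1.76-fold lower in siRNA than in TGF-b with the floor, and with a counting interval that reached up to -0.68. An exon region at chr16:14095636-14095789 had 1, 9 and 0 reads, with a ratio of 1.71 (-0.05 to 5.17) for TGF-b over NC, and was at least 2.22-fold lower in siRNA than in TGF-b, with an interval up to -1.05. Both had been called in TGF-b only. A pair of intron regions of Myh11, called in NC only, were lower in TGF-b than in NC, with 13 and 6 reads (-1.58, -3.04 to -0.35) and with 9 and 2 reads (-2.34, -4.81 to -0.73). Another Myh11 intron region had 5 and 9 reads in TGF-b and siRNA (0.86, -0.54 to 2.47). An intron region of Cald1, at chr6:34588047-34588547, had 3, 9 and 4 reads in NC, TGF-b and siRNA, with both intervals including 0. Within Lmod1, 18.7 kb past the start, there were 7 NC and 4 TGF-b reads. A region 6.28 kb before a start of Tpm2, annotated as downstream, had 4 and 7.

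**Figure D5:**
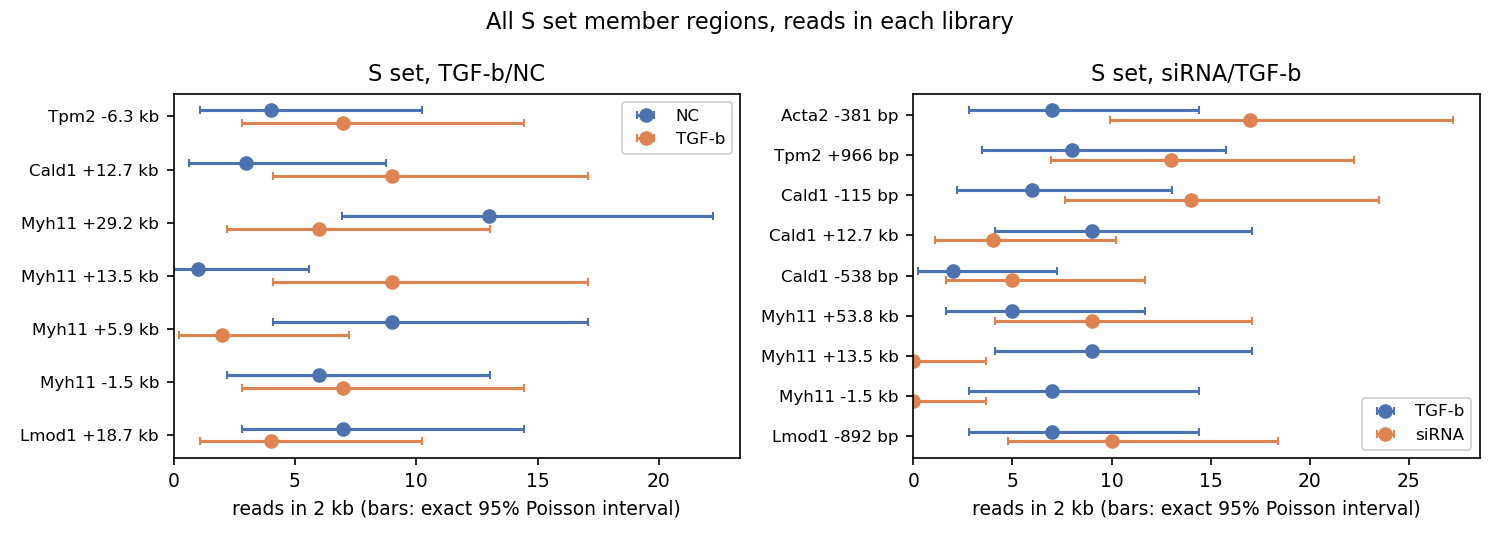
Reads in the 2 kb window of every S set region of the contractile genes in the libraries of each table, with exact 95% Poisson intervals; labels give the distance from the start. At Acta2 the siRNA library had 17 reads against 7 in TGF-b, and at Myh11 a pair of regions had 9 and 7 TGF-b and 0 siRNA reads.

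Few positions were shared between the sets. By an overlap of at least 1 bp, 4 of 64 T set regions (6.25%) met an S set region of these genes and 4 of 13 S set regions (30.8%) met a T set region, compared with 4.70% and 17.3% of all regions. They were the first start of Cald1, the region 53.8 kb inside Myh11, the one 905 bp past the start of Tpm2 and an intron region of Lmod1. Peaks of the sets at Acta2 did not overlap, although their 2 kb windows did. Overlap of the 2 kb windows, chosen after the data were seen, gave 12 of 64 (18.8%) and 10 of 13 (76.9%), compared with 17.9% and 51.6% of all regions.

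A list of 21 other contractile and regulatory genes, among them Mylk, Smtn, Des, Ppp1r12a and Srf, was counted in the same way. In the T set 20 of the 21 had a region. Of their 226 regions in TGF-b against NC, 26 (11.5%) were at least 2-fold higher and 103 (45.6%) at least 2-fold lower, against 17.3% and 42.1% of all regions, with a median of -0.85 against -0.65. Of 208 regions in siRNA against TGF-b, 104 (50%) were higher and 24 (11.5%) lower, against 49.7% and 16.2%, with a median of 0.98 against 0.97. In the S set 7 of 43 regions (16.3%) were higher and 13 (30.2%) lower after TGF-b, against 17.4% and 26.7% of all regions. After siRNA, 10 of 46 (21.7%) were higher and 11 (23.9%) lower, against 15.1% and 27.8%. Within 3 kb of a start in the T set, 5 of 50 regions were higher and 14 lower after TGF-b, against 19.2% and 29.2% of all such regions, and 13 of 39 were higher and 5 lower after siRNA, against 34.5% and 19.6%. Ppp1r12a, a subunit that targets myosin phosphatase, had a region near its start in both sets, called in TGF-b only against NC, with 6 NC, 26 TGF-b and 22 siRNA reads in the T set and 5, 23 and 30 in the S set, so NC was lowest in both. Near the start of Srf itself, the T set had 23 NC and 51 TGF-b reads (1.12, 0.45 to 1.85), whereas the regions near the starts of Kcnmb1 and Lpp were lower after TGF-b (-1.45, -2.69 to -0.44, and -1.24, -2.12 to -0.47). These 4 genes were chosen after their values were seen.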

How the data were processed

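The 6 CUT&Tag libraries of primary mouse cardiac fibroblasts, 1 per group, were compared within 4 tables, each with 2 libraries of a set over their merged peaks. The submitters' processing notes name BWA 0.7.12 and mm10, whereas the study's methods name Bowtie2, GRCm39 and a peak caller written Masc2. Of 47510 transcripts, 881 (1.85%) had the coordinates of the GRCm38 annotation in the tables, so that the tables were treated as GRCm39. The deposited densities are a signal per kb, (reads + 1) × 0.5 over 2 kb, rescaled by the authors along a line that puts peaks shared by both libraries at a mean ratio of 0. That step removes any change common to all shared peaks. The spike-in was not used here. The tables also hold the authors' fold changes and p-values, which were not used.

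Here the log2 ratio was taken from both densities, later library over earlier. Undoing the line gave whole reads, within 0.1 read, in 99.979% to 99.993% of regions. The interval of a ratio was the Wilson 95% interval of the later library's share of these reads, shifted by the line. Intervals cover counting error only, and PCR copies are not independent molecules. The total depth of the libraries was not used. The floor was 3 reads. The call was 2-fold, and "near" a start meant within 3000 bp of the authors' nearest transcript. Recovery of the line was checked on simulated data. Every region near a start and, per gene and table, the region with the most reads was to be named, and other regions were named for the gene's pattern after their values were seen. The genes, the list of 21 others and the markers were chosen with earlier results of these data known. Thresholds of 1.5-fold and 4-fold, centring on the median, the line undone, regions above the median density, the floor and 1 region per run of windows were tried as alternatives. Python 3.11.15, numpy 2.4.6 and pandas 2.3.3 were used.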

Additional observations from a re-analysis of the deposited data

Results flagged for a closer look

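Acta2 had opposite values of siRNA over TGF-b in the sets. The log2 ratio of density was -1.57 in the T set, at the region 248 bp past the start, and 1.26 in the S set, at the region 381 bp before the start. They are separate regions whose 2 kb windows overlap, 1 library stands behind each value, and whether the sets differ was not tested. The S set peak was called in siRNA only, so its direction is in part fixed by how regions were listed.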

How the results depend on the processing

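No paired analysis was possible because each group had 1 library, and for the same reason no replicate could be left out. The medians over regions of each table moved by less than the spread over regions under the alternatives run, but some changed sign or size. That of TGF-b over NC in the T set went from -0.27 to -0.12 as a median over genes and to -0.06 with 1 region per run of overlapping windows. That of siRNA over TGF-b in the T set went from 0.11 to -0.35 with the authors' line undone, to -0.10 as a median over genes and to 0.03 both above the median density and with 1 region per run. That of TGF-b over NC in the S set went from -0.40 to 0.19 with the line undone and to -1.58 above the median density, and that of siRNA over TGF-b there from 0.73 to 1.20 above the median density. The counts depended on the settings. For TGF-b over NC in the T set, the 8 higher regions became 4 at 4-fold and 3 above the median density, and the 12 lower became 6 above the median density. For siRNA over TGF-b in the T set, the 9 higher regions became 14 at 1.5-fold, 2 at 4-fold, 2 when centred on the median of all regions, 5 with the authors' line undone and 3 above the median density. The 8 lower regions there became 3 at 4-fold, 16 when centred, 13 with the line undone, 4 above the median density and 4 with low reads set to 3. For TGF-b over NC in the S set, the 1 higher region became 2 at 1.5-fold, 0 at 4-fold, 2 with the line undone, 0 above the median density and 0 with low reads set to 3, and the 3 lower became 1 at 4-fold and 1 above the median density. The 1 gene with a region near a start there became 0 within 1000 bp. For siRNA over TGF-b in the S set, the 3 higher regions became 5 at 1.5-fold and 0 at 4-fold, and the 2 lower became 0 above the median density and 1 with low reads set to 3. The 4 overlapping T set regions became 12 with 2 kb windows. Restricting to regions above the median density leaves fewer regions to count, and the cause of the other moves was not tested. Of the 51 named ratios, 12 changed sign when centred and 4 with the line undone, and none with low reads set to 3.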
